A study of Mus musculus with 14 samples.

Results

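The p53 and BCL2 family apoptosis genes were followed across cells of the adult mouse hippocampus, labelled as Nestin-positive precursors, that were sorted by how much reactive oxygen species (ROS) they contain. The 10 genes were Trp53, its targets Mdm2 and Perp, the pro-apoptotic BCL2 family genes Bax, Bak1, Bid and Bbc3, and the survival genes Bcl2, Bcl2l1 and Mcl1. They were found by matching Ensembl identifiers to mouse symbols, and all 10 were among the 15119 genes measured. RNA was measured in 14 libraries of dentate gyrus cells from the mouse strain B6.Cg-Tg(Nes-EGFP)1Yamm, which carries enhanced green fluorescent protein (GFP) under regulatory elements of the Nestin gene. All cells were GFP-positive and untreated, and they were sorted by dihydroethidium, a dye that becomes fluorescent on oxidation, into the classes GFP+ROS+ (5 libraries), GFP+ROS++ (5 libraries) and GFP+ROS+++ (4 libraries). These are written ROS+, ROS++ and ROS+++ here. The labels give neither the age in days or weeks nor the number of animals behind a library, so p-values measure the spread between these libraries, which may be technical. The Nestin transgene is known to be active in mural cells of blood vessels as well as in neural precursors.

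p53, the product of Trp53, is a transcription factor that stress stabilises and that turns on genes of cell cycle arrest, repair and death. Its death targets act on the BCL2 family at the mitochondrion: BH3-only proteins such as BID and PUMA (the product of Bbc3) activate BAX and BAK, which open the outer mitochondrial membrane, while BCL2, BCL-XL (the product of Bcl2l1) and MCL1 hold them in check. In the adult dentate gyrus many newborn cells are removed by apoptosis, and this removal requires Bax.

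The promoters of the genes show which of them carry a match to a p53 half-site close to their start. For that reason 4 of them are printed. RefSeq windows on GRCm38.p6 were available for 9 of the 10 genes, all but Perp. They made 13 windows, since some genes have several starts, and the 250 bases before each start were searched. The windows below are those of the genes with a match to a single half-site repeat of the p53 consensus (Trp53, Mdm2 and Bax). For contrast, that of Bid, which has no such match, is also given. A match to this repeat is not a match to a full p53 site. Capitals mark a match, on either strand, to that repeat, to the AP-1 site (TGANTCA), the cAMP response element (TGACGTCA), the E-box (CACGTG), the CCAAT box (CCAAT) or the GC box (GGGCGG). No marked matches overlap in these 4 windows.

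Trp53, chr11:69580109-69580358, plus strand: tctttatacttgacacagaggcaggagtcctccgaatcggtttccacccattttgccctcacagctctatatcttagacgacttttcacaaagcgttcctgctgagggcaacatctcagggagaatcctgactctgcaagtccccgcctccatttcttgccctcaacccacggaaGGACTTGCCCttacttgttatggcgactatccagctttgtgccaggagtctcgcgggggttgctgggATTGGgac

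Mdm2, chr10:117710759-117711008, minus strand: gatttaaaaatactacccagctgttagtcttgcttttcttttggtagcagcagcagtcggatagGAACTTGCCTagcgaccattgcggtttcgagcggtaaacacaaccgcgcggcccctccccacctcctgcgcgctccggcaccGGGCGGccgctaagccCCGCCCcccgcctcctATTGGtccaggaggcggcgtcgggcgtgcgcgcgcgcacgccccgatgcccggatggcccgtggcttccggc

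Bax, chr7:45466899-45467148, minus strand: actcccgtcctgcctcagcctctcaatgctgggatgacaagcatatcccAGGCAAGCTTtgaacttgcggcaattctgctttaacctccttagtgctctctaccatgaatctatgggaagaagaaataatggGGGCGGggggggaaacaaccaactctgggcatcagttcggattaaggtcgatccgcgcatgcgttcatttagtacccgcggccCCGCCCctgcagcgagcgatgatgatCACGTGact

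Bid, chr6:120916825-120917074, minus strand: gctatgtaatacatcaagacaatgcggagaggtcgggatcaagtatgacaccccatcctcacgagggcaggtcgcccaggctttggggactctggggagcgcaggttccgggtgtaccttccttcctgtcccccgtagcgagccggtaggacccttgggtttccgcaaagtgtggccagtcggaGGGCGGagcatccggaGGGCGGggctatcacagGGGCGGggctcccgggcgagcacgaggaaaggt

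The p53 repeat reads GGACTTGCCC in the window of Trp53, 75 bases before the start. In Mdm2 it reads GAACTTGCCT and lies 186 bases before the start, and in Bax it reads AGGCAAGCTT, 201 bases before it. Of all 32841 windows of this length, 7.13% hold such a match, so it is a description of these letters and no evidence of binding. The GC box was found in 8 of the 13 windows, which belong to 6 of the 9 genes, against 32.7% of all windows. In the window of Bid stand 3 of its copies. The CCAAT box was found in 3 windows of 3 genes (33.9% of all windows) and the E-box in 2 windows of 2 genes (6.02% of all windows). The AP-1 site (6.75% of all windows) and the cAMP response element (1.55%) were found in none. G and C made up 52.8% of the Trp53 window, 65.6% of that of Mdm2, 54.0% of that of Bax and 63.6% of that of Bid, against a median of 52.4% over all windows.

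Recovered totals were 20832009 to 25313902 reads in ROS+ libraries, 18325361 to 23454022 in ROS++ and 12704227 to 20998589 in ROS+++, so that a count of 0 allows up to 0.236 CPM (reads per 1e+06 reads of the library) in the shallowest library. The classes also differed in markers of cell types, and in ROS+++ those of mural cells were far above those of precursors. Mural cell markers summed to 201 to 715 CPM in ROS+ cells, 8085 to 24314 CPM in ROS++ cells and 53070 to 61822 CPM in ROS+++ cells, and all 12 were higher in both ROS++ and ROS+++ than in ROS+. Neuroblast and young neuron markers ran the other way, with 11180 to 16591 CPM in ROS+ cells, 956 to 2376 CPM in ROS++ cells and 36.3 to 199 CPM in ROS+++ cells, and 8 of 9 were lower in ROS++ and 9 of 9 in ROS+++ than in ROS+. Microglia and macrophage markers summed to 28.9 to 36.7 CPM in ROS+ cells, 923 to 2446 CPM in ROS++ cells and 729 to 2794 CPM in ROS+++ cells, and 10 of the 11 measured were higher in ROS++ and 11 in ROS+++ than in ROS+. The 10 markers of radial glia-like cells and astrocytes summed to 1043 to 1584, 5435 to 7714 and 2299 to 5832 CPM in ROS+, ROS++ and ROS+++, and the 9 cell cycle markers to 152 to 450, 575 to 1087 and 95.2 to 199 CPM. Oligodendrocyte markers summed to 1965 to 5459 CPM in ROS+ cells, 1976 to 10368 CPM in ROS++ cells and 487 to 653 CPM in ROS+++ cells, and endothelial markers to 108 to 297, 33.3 to 344 and 389 to 712 CPM. Of the leptomeningeal fibroblast markers 5 of 8 were higher in both higher ROS classes than in ROS+, and 1 was lower in ROS+++ than in ROS+. Their sums were 941 to 1454, 1114 to 1997 and 669 to 1199 CPM in ROS+, ROS++ and ROS+++. Of 9 ependymal and choroid plexus markers only Rarres2, which other cells also express, was measured, with means of 1.98, 109 and 421 CPM. No measured marker was at 0 in all libraries of a class. In bulk libraries like these, fewer cells of a type and less RNA per cell cannot be told apart, and the part of these marker differences in the results below was not tested.

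Across the 10 genes, Perp, Bcl2 and Mcl1 were higher and Trp53 and Bid lower in both higher ROS classes than in ROS+. Calls were made by limma on log2(CPM + 1) over all genes, at a Benjamini-Hochberg adjusted p under 0.05. In ROS++ against ROS+, 3 of the 10 genes rose and 3 fell (Trp53, Bid and Bcl2l1), and 4 did not pass. Of all 15102 genes tested, 29.6% were called, 16.4% as higher and 13.2% as lower. Against ROS+, ROS+++ had 3 genes that rose and 4 that fell (Trp53, Bax, Bid and Bbc3), while 59.2% of all genes were called, 19.2% as higher and 40.0% as lower. Between ROS+++ and ROS++, 1 rose (Perp) and 2 fell (Bax and Bid), against 39.1% of all genes, 9.89% higher and 29.2% lower. The share of the 10 genes called was thus 60% in ROS++ against ROS+, above the background. It was nearer to the background in the other comparisons, with 70% and 30%. The 10 genes were chosen with earlier results of these data known, so these shares only describe them. The F-test for any difference among the classes called 8 of the 10, all but Mdm2 and Bak1, and 61.5% of all genes. Libraries did not overlap for 4 genes in ROS++ against ROS+ (23.0% of all genes), for 5 in ROS+++ against ROS+ (50.0%) and for 2 in ROS+++ against ROS++ (27.0%).

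The scaling of the libraries bears on the values of both ROS+++ comparisons. With scaling by library totals, the median change of all genes was -0.03 on the log2 scale in ROS++ against ROS+, -0.44 in ROS+++ against ROS+ and -0.34 in ROS+++ against ROS++, and the median of the 10 genes was -0.03, -0.27 and -0.24 in the same order. Relative log expression factors, which centre the genes, moved the median of all genes up by 0.02, 0.40 and 0.37, and upper-quartile factors by 0.02, 0.27 and 0.25. The median of the 10 genes then became -0.01, 0.06 and 0.09 with relative log expression factors, so its sign flips in both comparisons of ROS+++, and -0.02, -0.05 and -0.03 with upper-quartile factors, where it does not. Of all calls, 55.3% were higher in ROS++ against ROS+, 32.5% in ROS+++ against ROS+ and 25.3% in ROS+++ against ROS++. These shares were 57.2%, 50.6% and 52.2% with relative log expression factors and 56.8%, 43.9% and 42.4% with upper-quartile factors.

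**Figure D1:**
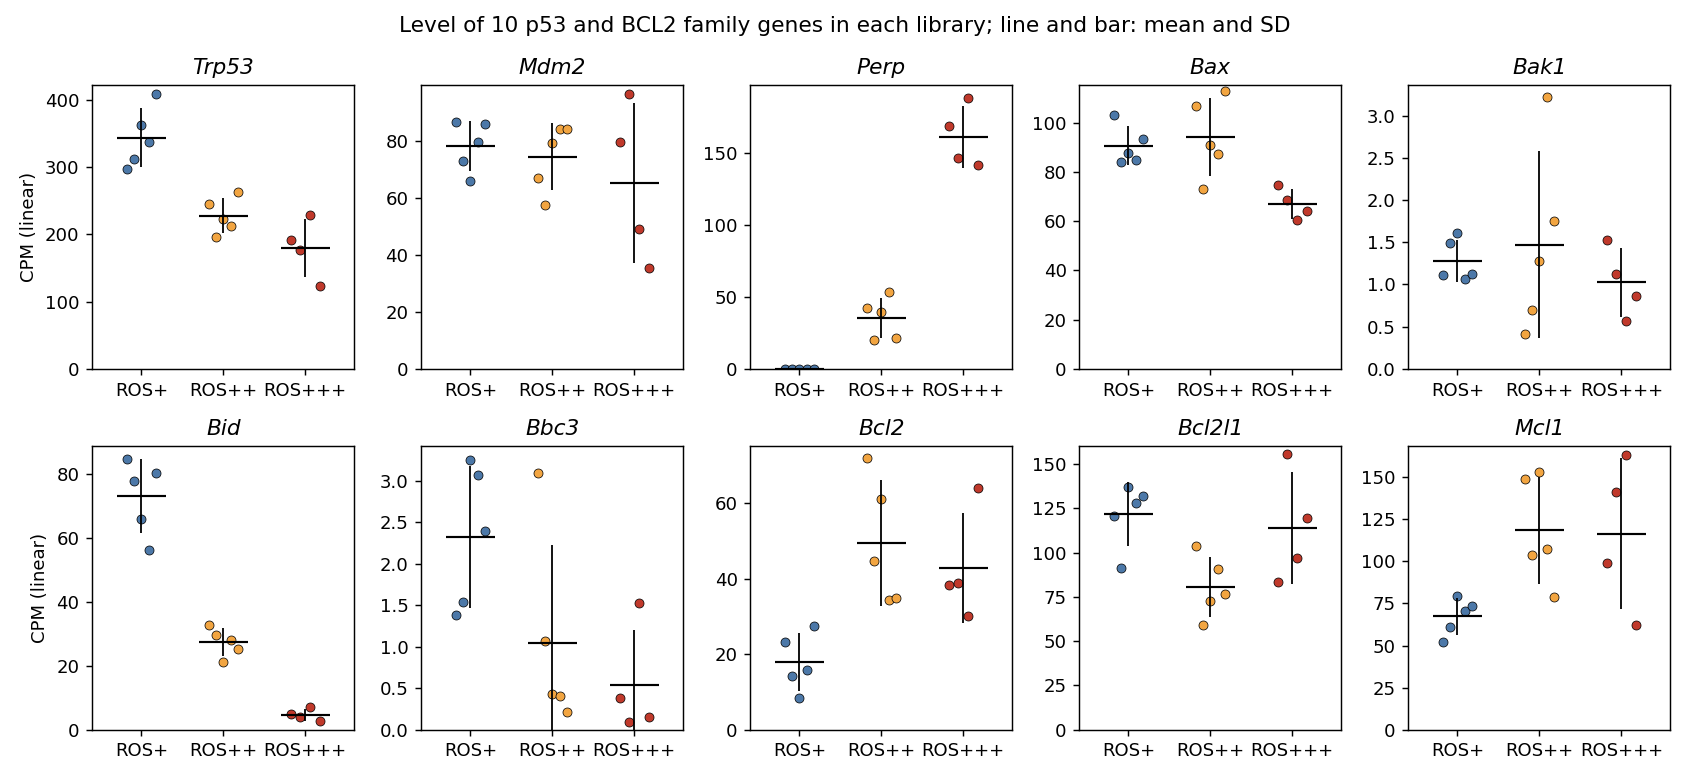
Level of each of the 10 genes in CPM on a linear axis of its own, with 1 point per library for ROS+ (5), ROS++ (5) and ROS+++ (4), the mean as a horizontal line and the SD as a vertical bar. The points of Bid and Perp in the 3 classes do not overlap, while those of Mdm2 and Bak1 do in every comparison.

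Trp53 (chr11:69580359-69591873, mm10) itself fell in both higher ROS classes. ROS+ libraries had 298, 312, 363, 338 and 408 CPM, ROS++ libraries 245, 196, 222, 213 and 263 CPM, and ROS+++ libraries 192, 176, 228 and 124 CPM. Every ROS+ library lay above every library of both other classes, and ROS++ and ROS+++ overlapped. The log2 difference was -0.59 ± 0.14 (SE, limma adjusted p = 0.00437) in ROS++ against ROS+ and -0.95 ± 0.15 (adjusted p = 3.67e-05) in ROS+++ against ROS+. With relative log expression factors the difference of ROS+++ was -0.51 (limma adjusted p = 0.0160). ROS+++ against ROS++ gave -0.36 ± 0.15 (limma adjusted p = 0.0672), which became 0.05 with relative log expression factors and passed without ROS+++ replicate 3 at -0.49 (adjusted p = 0.02).

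Mdm2 (chr10:117688875-117710758), the ubiquitin ligase that marks p53 for degradation and is itself turned on by p53, passed in no comparison. Its levels were 86.5, 72.8, 65.8, 79.4 and 85.8 CPM in ROS+ libraries, 66.9, 57.4, 79.1, 84.2 and 83.9 CPM in ROS++ libraries, and 79.7, 96.4, 49.1 and 35.3 CPM in ROS+++. The ROS+++ libraries spanned both the highest and the lowest values, and the classes overlapped. The log2 difference was -0.08 ± 0.22 (SE, limma adjusted p = 0.827) in ROS++ against ROS+ and -0.36 ± 0.23 (adjusted p = 0.200) in ROS+++ against ROS+. The second passed without ROS+++ replicate 2, at -0.58 (limma adjusted p = 0.0382), and was 0.08 with relative log expression factors. ROS+++ against ROS++ gave -0.28 ± 0.23 (limma adjusted p = 0.369).

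Perp (chr10:18845020-18857073), a p53 target that encodes a tetraspan membrane protein of cell junctions, had the widest fold range of the 10 genes. ROS+ libraries held 2, 1, 1, 5 and 4 reads of it, or 0.0790, 0.0480, 0.0446, 0.213 and 0.188 CPM. ROS++ libraries had 42.2, 20.3, 39.3, 53.2 and 21.8 CPM, and ROS+++ libraries 169, 146, 188 and 142 CPM. The classes did not overlap in any comparison, and ROS+ lay near the level that a count of 0 allows. The log2(CPM + 1) difference was 4.94 ± 0.28 (SE, limma adjusted p = 8.61e-10) in ROS++ against ROS+, 7.18 ± 0.30 (adjusted p = 4.92e-12) in ROS+++ against ROS+ and 2.24 ± 0.30 (adjusted p = 1.53e-05) in ROS+++ against ROS++. Since the added 1 CPM shrinks the change of a gene so low in ROS+, the pooled reads are also given. They numbered 3543 in ROS++ and 12259 in ROS+++ against 13 in ROS+, which makes a ratio of pooled CPM of 312 (exact 95% interval 182 to 586) for ROS++ over ROS+ and of 1425 (833 to 2676) for ROS+++ over ROS+. Such intervals cover counting error only, since amplified reads without molecular identifiers are not independent molecules. The mural and macrophage marker sums above and Rarres2 were also higher in both higher ROS classes. So were 5 of 8 fibroblast markers, but 1 was lower in ROS+++ than in ROS+. The fibroblast marker sum was not higher in ROS+++ (669 to 1199 CPM) than in ROS+ (941 to 1454 CPM). The part of these markers in the rise of Perp was not tested.

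Of the effectors, Bax (chr7:45461697-45466898) was called lower in ROS+++ with scaling by library totals only. Its levels were 103, 84.1, 87.9, 84.9 and 93.3 CPM in ROS+ libraries, 107, 73.0, 90.8, 87.3 and 113 CPM in ROS++ libraries, and 74.5, 68.7, 60.6 and 63.9 CPM in ROS+++. All ROS+++ libraries lay below all ROS+ libraries, and the highest of them just above the lowest of ROS++. The log2 difference was 0.04 ± 0.14 (SE, limma adjusted p = 0.858) in ROS++ against ROS+, -0.43 ± 0.15 (adjusted p = 0.0172) in ROS+++ against ROS+ and -0.47 ± 0.15 (adjusted p = 0.0160) in ROS+++ against ROS++. Neither call of ROS+++ held with relative log expression factors (0.0041 and -0.06, limma adjusted p = 0.985 and 0.804) or upper-quartile factors (-0.14 and -0.20, limma adjusted p = 0.454 and 0.343). The call against ROS+ also missed the threshold without ROS+++ replicate 3 (limma adjusted p = 0.0504), and that against ROS++ in a model of these 2 classes alone (adjusted p = 0.0510). Bak1 (chr17:27019810-27029009), the other effector, was near the lower limit of measurement, with 1.11, 1.49, 1.61, 1.07 and 1.13 CPM in ROS+ libraries, 0.419, 0.698, 1.28, 3.22 and 1.75 CPM in ROS++ libraries and 1.53, 1.13, 0.571 and 0.866 CPM in ROS+++, from 8 to 63 reads a library. It passed in no comparison, and its log2 difference of 0.02 ± 0.32 (SE, limma adjusted p = 0.974) in ROS++ against ROS+ and -0.19 ± 0.34 (adjusted p = 0.655) in ROS+++ against ROS+ changed sign under other settings. Of its exon length, 437 bases or 18.2% overlap Ggnbp1 on the opposite strand.

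Bid (chr6:120891930-120916853) fell stepwise over the 3 classes. It encodes the BH3-only protein that caspase-8 cleaves to carry death receptor signals to the mitochondrion. ROS+ libraries had 84.7, 77.9, 65.9, 56.4 and 80.2 CPM, ROS++ libraries 32.9, 29.5, 21.3, 28.2 and 25.2 CPM, and ROS+++ libraries 4.77, 4.07, 7.19 and 2.6 CPM. No library of any class overlapped with those of another. The mean in ROS+ was 2.66 times that in ROS++ and 15.7 times that in ROS+++, with log2 differences of -1.38 ± 0.24 (SE, limma adjusted p = 0.000255) in ROS++ against ROS+ and -3.76 ± 0.25 (adjusted p = 1.1e-09) in ROS+++ against ROS+. ROS+++ against ROS++ gave -2.38 ± 0.25 (limma adjusted p = 1.62e-06), and all 3 calls held under every alternative run. Reads do not keep the strand, and 628 bases or 17.7% of the exon length of Bid overlap Bcl2l13 on the opposite strand. Bcl2l13 averaged 29.5, 24.6 and 15.2 CPM in ROS+, ROS++ and ROS+++, beside 73.0, 27.4 and 4.66 CPM for Bid. Reads of the shared bases could come from either gene, and only in ROS+++ was the mean of Bcl2l13 above that of Bid. The neuroblast and young neuron marker sum was also lower in each step of the classes, and its part in the fall of Bid was not tested.

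Bbc3 (chr7:16308393-16318205), which encodes the p53-induced BH3-only protein PUMA, was low in all classes. It had 1.38, 1.54, 3.26, 3.07 and 2.39 CPM in ROS+ libraries, 3.09, 1.07, 0.426, 0.409 and 0.218 CPM in ROS++ libraries, and 0.382, 0.0982, 1.52 and 0.157 CPM in ROS+++, from 2 to 73 reads a library. A single library stood above the rest in both ROS++ and ROS+++, and the classes overlapped. The log2(CPM + 1) difference was -0.82 ± 0.37 (SE, limma adjusted p = 0.107) in ROS++ against ROS+, and it passed without ROS++ replicate 1 at -1.11 (adjusted p = 0.0220). The difference of ROS+++ from ROS+ was -1.16 ± 0.39 (limma adjusted p = 0.0173). That call missed the threshold with relative log expression factors (limma adjusted p = 0.0524) and without ROS+++ replicate 2 (adjusted p = 0.0560), and the difference was -2.57 on the log2 scale as deposited and -2.61 in limma-voom. ROS+++ against ROS++ gave -0.34 ± 0.39 (limma adjusted p = 0.523).

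Among the survival genes, Bcl2 (chr1:106538178-106714274) rose in both higher ROS classes. Its levels were 23.3, 14.4, 8.34, 15.8 and 27.6 CPM in ROS+ libraries, 72.1, 44.8, 61.0, 34.3 and 35.0 CPM in ROS++ libraries, and 38.3, 38.8, 30.2 and 64.1 CPM in ROS+++. All libraries of the higher ROS classes lay above all those of ROS+, and ROS++ and ROS+++ overlapped. The log2 difference was 1.46 ± 0.31 (SE, limma adjusted p = 0.0014) in ROS++ against ROS+ and 1.26 ± 0.32 (adjusted p = 0.0028) in ROS+++ against ROS+, and both calls held under every alternative run. ROS+++ against ROS++ gave -0.20 ± 0.32 (limma adjusted p = 0.661), a value that changed sign with both other scalings.

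Bcl2l1 (chr2:152780668-152831728), whose main product BCL-XL is the survival protein of many neurons, was lowest in ROS++. It had 121, 91.4, 137, 128 and 132 CPM in ROS+ libraries, 104, 59.2, 72.5, 91.0 and 76.7 CPM in ROS++ libraries, and 83.5, 156, 97.1 and 119 CPM in ROS+++. ROS++ overlapped with both other classes. The log2 difference was -0.60 ± 0.18 (SE, limma adjusted p = 0.0182) in ROS++ against ROS+, a call that just missed the threshold without ROS++ replicate 2 (adjusted p = 0.0502), and -0.12 ± 0.19 (adjusted p = 0.605) in ROS+++ against ROS+. ROS+++ against ROS++ gave 0.48 ± 0.19 (limma adjusted p = 0.0570). That difference passed with relative log expression factors (0.89, limma adjusted p = 0.00217), with upper-quartile factors (0.76, adjusted p = 0.00587), with sets of consecutive library numbers as a block (0.53, adjusted p = 0.0163), without ROS++ replicate 1 (0.58, adjusted p = 0.0257) and without ROS+++ replicate 1 (0.62, adjusted p = 0.0216).

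Mcl1 (chr3:95658788-95663176), a survival gene with a short-lived transcript and protein, was called higher in both higher ROS classes. Its levels were 52.0, 61.1, 79.6, 70.6 and 73.4 CPM in ROS+ libraries, 149, 104, 153, 107 and 78.8 CPM in ROS++ libraries, and 99.0, 141, 163 and 62.4 CPM in ROS+++. Only ROS++ replicate 5 and ROS+++ replicate 4 reached down into the range of ROS+. The log2 difference was 0.78 ± 0.23 (SE, limma adjusted p = 0.0179) in ROS++ against ROS+ and 0.71 ± 0.25 (adjusted p = 0.0211) in ROS+++ against ROS+, where relative log expression factors gave 1.14 (adjusted p = 0.00118). The first call missed the threshold without ROS++ replicate 1 or 3 (limma adjusted p = 0.0508 and 0.0520). The second missed it without ROS+ replicate 1, ROS+++ replicate 2 or ROS+++ replicate 3 (limma adjusted p = 0.0538, 0.0762 and 0.0938). Between ROS+++ and ROS++ the difference was -0.07 ± 0.25 (limma adjusted p = 0.843).

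**Figure D2:**
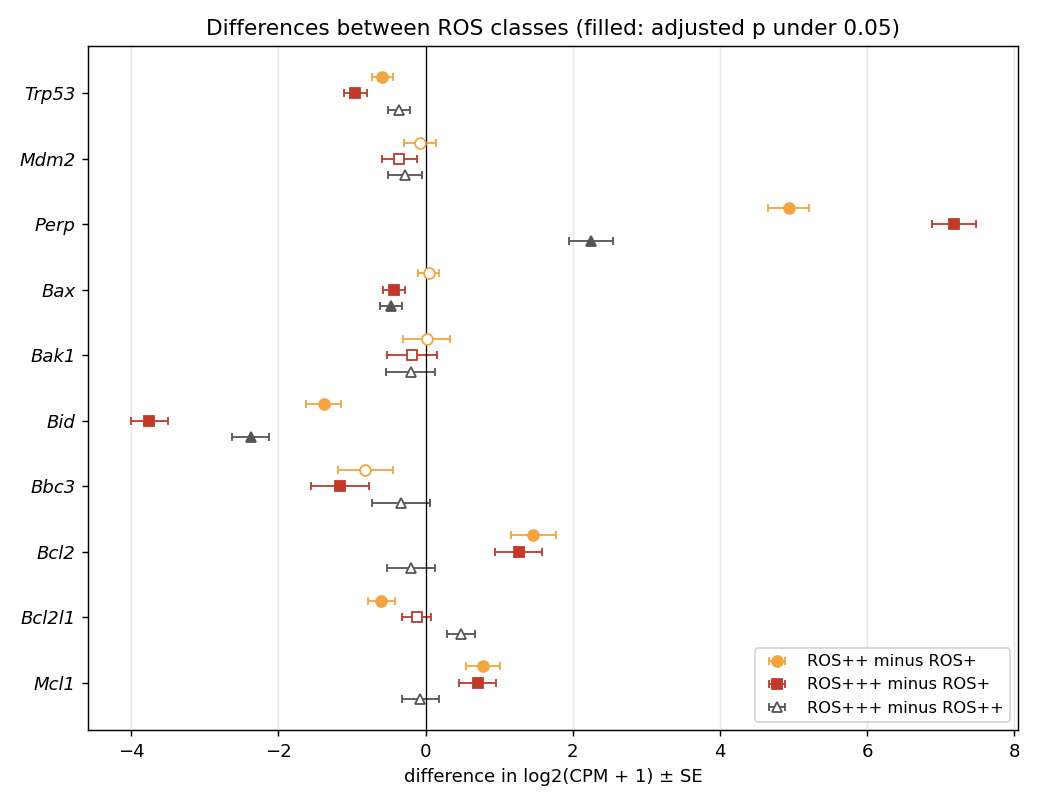
Log2(CPM + 1) difference of each of the 10 genes with its SE (horizontal axis) for the 3 comparisons of the classes, with filled symbols for an adjusted p under 0.05. Perp lies far to the right at 4.94 and 7.18, Bid far to the left at -1.38 and -3.76, and Bcl2 and Mcl1 are the survival genes to the right of 0 in both comparisons with ROS+.

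Per kilobase of annotated exon, which allows levels of different genes to be compared, Trp53 was the highest of the 10 genes in ROS+ with a mean of 85.0 CPM per kb, followed by Bax with 57.5, Bcl2l1 with 26.6, Bid with 20.6 and Mcl1 with 19.7 CPM per kb. Mdm2 followed with 15.4 CPM per kb, and from Bcl2l1 to Mdm2 each gene overlapped with its neighbour in the order over the 5 libraries. Bcl2 (1.95), Bbc3 (1.10), Bak1 (0.531) and Perp (0.0586 CPM per kb) were far lower. In ROS++ the order began with Bax at 59.7 and Trp53 at 56.3 CPM per kb, which overlapped, and went on with Mcl1 at 34.6, Perp at 18.1, Bcl2l1 at 17.6, Mdm2 at 14.6, Bid at 7.72 and Bcl2 at 5.40 CPM per kb. From Mcl1 to Mdm2 each overlapped with its neighbour, and Bid did so with Bcl2. Bak1 and Bbc3 came last at 0.612 and 0.491 CPM per kb. In ROS+++ Perp stood first at 82.5 CPM per kb, ahead of Trp53 at 44.5, Bax at 42.5, Mcl1 at 34.1 and Bcl2l1 at 24.8. Mdm2 at 12.8 and Bcl2 at 4.68 CPM per kb came next, and from Trp53 to Bcl2 each gene overlapped with its neighbour over the 4 libraries, while Perp and Bid overlapped with no other gene next to them. These stood above Bid at 1.31, Bak1 at 0.425 and Bbc3 at 0.254 CPM per kb. These values use all annotated exons of a gene, so a gene with long unused exons is placed too low.

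Ratios between genes within a library do not depend on the scaling between libraries, and they show the balance of pro-apoptotic and survival transcripts. The 4 pro-apoptotic genes (Bax, Bak1, Bid and Bbc3) stood, summed, to the 3 survival genes (Bcl2, Bcl2l1 and Mcl1), per kilobase, as 2.05, 1.95, 1.41, 1.42 and 1.57 to 1 in ROS+ libraries. The ratios were 1.06, 1.15, 0.956, 1.18 and 1.82 in ROS++ libraries, and 0.962, 0.569, 0.574 and 0.813 in ROS+++ libraries. The 4 pro-apoptotic genes thus summed to more than the 3 survival genes in all ROS+ libraries and in 4 of 5 ROS++ libraries, and to less in all 4 ROS+++ libraries. On the log2 scale the ratio averaged 0.73 ± 0.25 in ROS+, 0.27 ± 0.36 in ROS++ and -0.49 ± 0.38 in ROS+++ (SD, n = 5, 5 and 4). ROS+++ did not overlap with ROS+ (difference -1.22), while ROS++ overlapped with both ROS+ (-0.46) and ROS+++, which differed from ROS++ by -0.76. Leaving out any 1 library kept these differences between -1.37 and -1.12 for ROS+++ against ROS+ and between -0.61 and -0.38 for ROS++ against ROS+. Which side is larger depends on the genes summed. Of the other pro-apoptotic genes of the family, Bnip3l, Bnip3 and Bad had the highest mean CPM in every class. They averaged 275, 130 and 66.0 CPM in ROS+ and 183, 85.6 and 118 CPM in ROS+++. Their part in the wider sum that follows was not tested. Over all 13 pro-apoptotic and 6 survival genes of the family that were measured, a sum chosen after the values were seen, the ratio was 4.43 to 5.58 in ROS+ libraries, 2.52 to 4.03 in ROS++ libraries and 1.94 to 3.16 in ROS+++ libraries, above 1 in all. ROS++ and ROS+++ both lay below ROS+ without overlap there, with log2 differences of -0.62 for ROS++ and -0.95 for ROS+++, and ROS+++ overlapped with ROS++ (-0.33). No test was made of the sums, since the genes were chosen with their results known, and such a sum is not a measure of active protein.

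With scaling by library totals, the sum of the 4 pro-apoptotic genes was 79.7 ± 7.30 CPM per kb in ROS+, 68.5 ± 10.3 in ROS++ and 44.5 ± 3.74 in ROS+++, and that of the 3 survival genes was 48.2 ± 6.33, 57.6 ± 12.8 and 63.6 ± 14.5 CPM per kb in the same order (SD, n = 5, 5 and 4). The survival sum overlapped among all classes, and the lower level of Bax in ROS+++ depended on the scaling, as given above. Within the pro-apoptotic sum, Bid made up 25.7% in ROS+, 11.4% in ROS++ and 2.97% in ROS+++ on average, and Bax 72.2%, 86.9% and 95.5%. Within the survival sum, Bcl2l1 held 55.0% in ROS+, 31.1% in ROS++ and 39.6% in ROS+++, Mcl1 40.9%, 59.7% and 52.5%, and Bcl2 4.11%, 9.26% and 7.92%. Bcl2l1 was thus the larger survival transcript in all ROS+ libraries and Mcl1 in all ROS++ libraries, while ROS+++ replicate 4 differed from the other 3 of its class in having more Bcl2l1 than Mcl1.

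**Figure D3:**
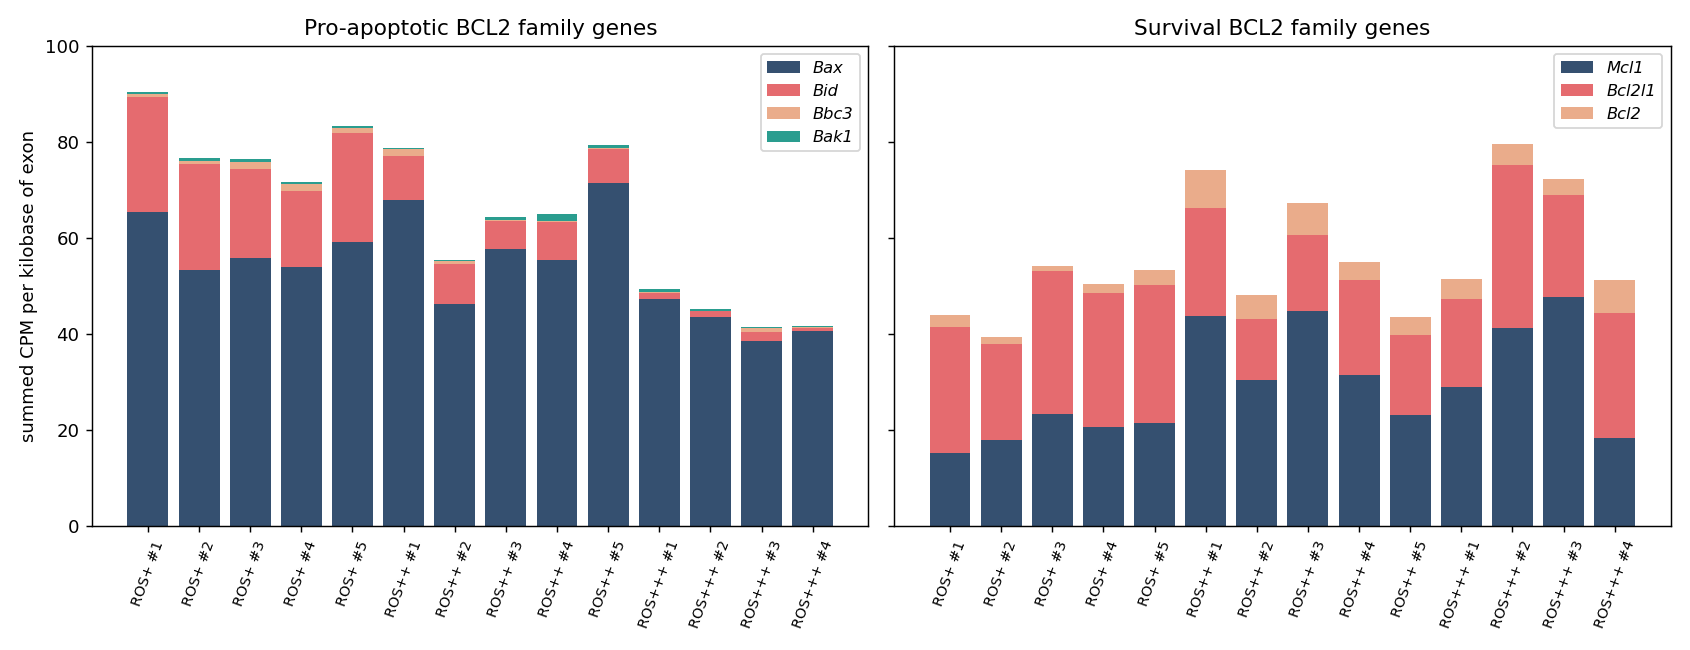
Summed CPM per kilobase of exon of the pro-apoptotic genes (left) and the survival genes (right) in each of the 14 libraries, on the same linear axis from 0, with each gene as a coloured segment. The Bid segment shrinks to 2.97% of the pro-apoptotic sum on average in ROS+++, and Mcl1 takes more of the survival bars in ROS++ than in ROS+.

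Single pairs of genes did not all move alike. Bax stood to Bcl2 as 25.7, 34.1, 61.2, 31.2 and 19.6 to 1 in ROS+ libraries, 8.61, 9.46, 8.64, 14.8 and 18.7 to 1 in ROS++ libraries, and 11.3, 10.3, 11.7 and 5.80 to 1 in ROS+++ libraries. ROS+ lay above both other classes without overlap, by a log2 difference of -1.48 for ROS++ and -1.76 for ROS+++. Bax to Bcl2l1 behaved otherwise. It was 2.49, 2.68, 1.86, 1.93 and 2.06 in ROS+, 3.00, 3.59, 3.64, 2.79 and 4.27 in ROS++, and 2.6, 1.29, 1.82 and 1.56 in ROS+++, so that ROS++ lay above both other classes without overlap. Bak1 to Mcl1 was 0.0427 or less in every library and overlapped among the classes. The pairs that follow were chosen after their values were seen. Bax to Mcl1 was 2.39 to 4.30 in the libraries of ROS+, 1.29 to 3.10 in those of ROS++ and 0.806 to 2.22 in those of ROS+++. For this pair ROS+++ lay below ROS+ without overlap, while ROS++ overlapped with both other classes. Bid to Bax was 0.295 to 0.411 in the libraries of ROS+, 0.0991 to 0.180 in those of ROS++ and 0.0180 to 0.0527 in those of ROS+++, with no overlap among the classes. Mcl1 to Bcl2l1 was 0.579 to 0.897 in the libraries of ROS+, 1.38 to 2.84 in those of ROS++ and 0.701 to 2.25 in those of ROS+++, and ROS++ did not overlap with ROS+.

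**Figure D4:**
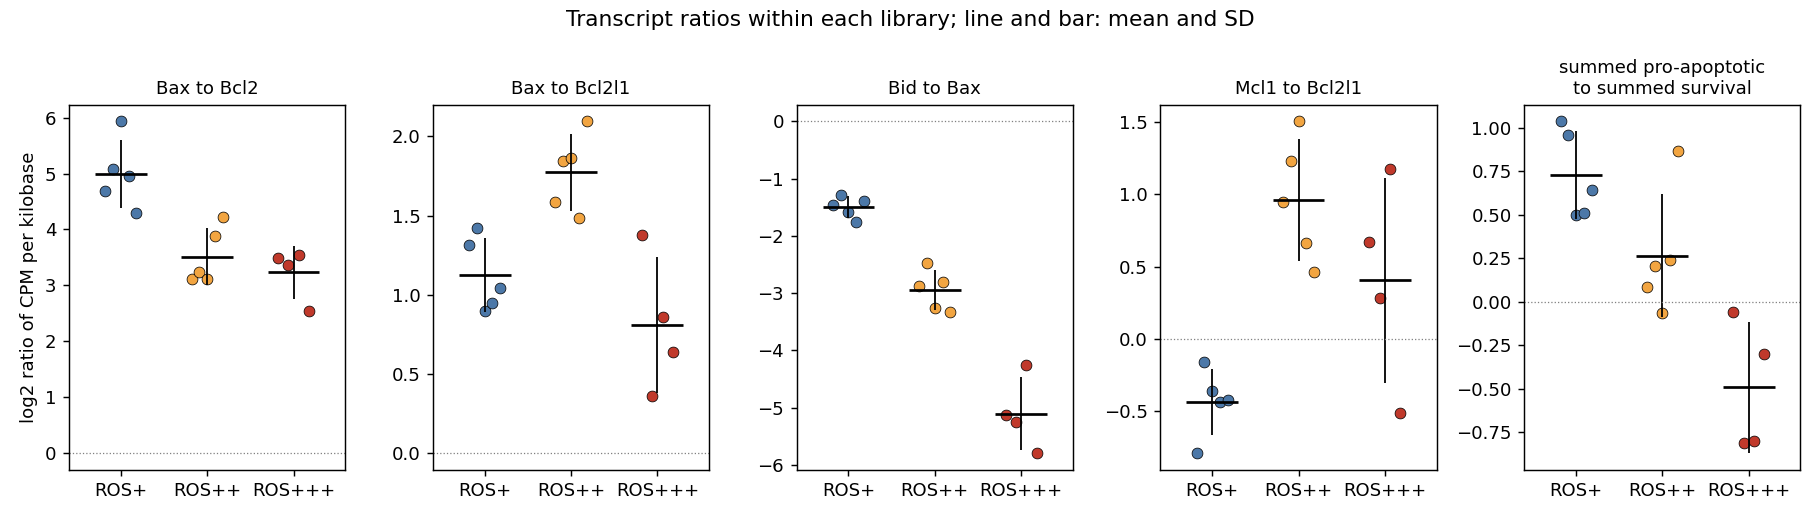
Log2 ratio of CPM per kilobase between genes or summed groups in each library, with 1 point per library, the mean as a horizontal line, the SD as a vertical bar and a dotted line at equal amounts. Each panel has its own vertical axis, and the 4 ROS+++ points of the summed ratio of the 4 and 3 genes (right) all lie below 0 and below all ROS+ points.

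The rest of the BCL2 family was read from lists set with earlier results of these data known. Bcl2l12 and Bcl2l13, listed as less defined, were in neither of the sums above. Bcl2l12 was higher than in ROS+ in ROS++ (2.62 ± 0.41, SE, limma adjusted p = 9.41e-05) and in ROS+++ (3.28 ± 0.43, adjusted p = 4.56e-06). Bcl2l13 was called lower in ROS+++ than in ROS+ (-0.97 ± 0.33, limma adjusted p = 0.0172), a call lost in 3 of 23 alternatives. All 9 other pro-apoptotic genes were called in ROS+++ against ROS+, 5 as higher and 4 as lower, with scaling by library totals, against 59.2% of all genes. With both other scalings 5 were higher and 1 was lower. ROS++ had 3 higher and 2 lower than ROS+ (29.6% of all genes called), and 3 and 1 with both other scalings. Pmaip1, which encodes the p53-induced BH3-only protein NOXA that binds MCL1, averaged 0.354 ± 0.768 CPM in ROS+, 7.50 ± 2.74 in ROS++ and 19.5 ± 10.7 in ROS+++ (SD). Its log2(CPM + 1) difference was 2.72 ± 0.44 (SE, limma adjusted p = 0.000156) in ROS++ against ROS+ and 3.85 ± 0.47 (adjusted p = 1.87e-06) in ROS+++ against ROS+. Hrk, a BH3-only gene known from neurons, averaged 26.3 ± 6.33, 14.4 ± 9.60 and 1.74 ± 1.90 CPM in ROS+, ROS++ and ROS+++ and fell in ROS+++ against both ROS+ (-3.53 ± 0.52, limma adjusted p = 1.41e-05) and ROS++ (-2.45 ± 0.52, adjusted p = 0.00107). Bcl2l11, which encodes BIM, averaged 8.72 ± 2.93, 12.9 ± 3.82 and 18.9 ± 8.48 CPM in ROS+, ROS++ and ROS+++. Its difference of 0.99 ± 0.36 in ROS+++ against ROS+ (limma adjusted p = 0.0269) missed the threshold without ROS+ replicate 3 or 5 or ROS+++ replicate 2 or 3 (adjusted p = 0.0612 to 0.0967). Of 5 other survival genes 3 were measured, and 2 of them were called higher in both higher ROS classes than in ROS+. The call of Bcl2a1d in ROS++ (limma adjusted p = 0.0289) was lost in 8 of 22 alternatives, among them without any 1 of the ROS+ libraries, and its adjusted p ranged over all of them from 0.00195 to 0.0653. These 2, Bcl2a1b and Bcl2a1d, are near-identical copies whose reads may have been divided between them. Both had 0 reads in all ROS+ libraries, and they averaged 2.54 ± 1.64 and 1.74 ± 1.07 CPM in ROS++ and 4.27 ± 2.23 and 4.26 ± 3.31 CPM in ROS+++. Bcl2l2 averaged 16.8 ± 3.91, 22.8 ± 4.68 and 19.5 ± 1.72 CPM in ROS+, ROS++ and ROS+++ and passed in no comparison; with relative log expression factors it passed in ROS+++ against ROS+ (0.66, limma adjusted p = 0.0265).

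Of 13 regulators and relatives of p53, 10 were tested. In ROS+++ against ROS+ 7 were called lower and 3 did not pass, with a list median of -1.13, where 59.2% of all genes were called, 40.0% as lower, with a median of -0.44. In ROS++, 2 were higher and 2 lower than in ROS+, with a median of -0.40, where 29.6% of all genes were called. With relative log expression factors the ROS+++ count was 1 higher and 5 lower, with a median of -0.70. Mdm4, which binds p53 and blocks its activity, averaged 227 ± 5.54 CPM in ROS+, 150.1 ± 25.4 in ROS++ and 152 ± 13 in ROS+++. It fell by 0.61 ± 0.12 (SE, limma adjusted p = 0.000673) in ROS++ against ROS+. The fall of 0.58 ± 0.12 in ROS+++ against ROS+ (limma adjusted p = 0.000616) was lost with relative log expression factors (-0.14, adjusted p = 0.388) and upper-quartile factors (-0.29, adjusted p = 0.0691). Chek1, the checkpoint kinase of DNA replication, averaged 14.4 ± 3.57, 29.4 ± 5.57 and 2.53 ± 0.810 CPM in ROS+, ROS++ and ROS+++. It rose by 0.99 ± 0.27 in ROS++ against ROS+ (limma adjusted p = 0.00956) and fell by 2.12 ± 0.29 in ROS+++ against ROS+ (adjusted p = 5.62e-06). The cell cycle marker sum given above was likewise highest in ROS++ and lowest in ROS+++. Atm, the kinase that signals DNA breaks to p53, averaged 26.6 ± 4.35, 22.4 ± 6.43 and 8.06 ± 4.57 CPM and fell by 1.73 ± 0.34 in ROS+++ against ROS+ (limma adjusted p = 0.000261).

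Other targets of p53 moved in both directions, as all genes did. Of the 28 tested in a list of 30, 4 were higher and 3 lower in ROS++ against ROS+, 7 higher and 8 lower in ROS+++ against ROS+, and 6 higher and 7 lower in ROS+++ against ROS++. Of all genes, 29.6%, 59.2% and 39.1% were called in these comparisons. With relative log expression factors the counts were 4 and 2, 10 and 6, and 9 and 6, and with upper-quartile factors 4 and 2, 9 and 7, and 7 and 6, so the larger side turned in both comparisons of ROS+++. The medians were 0.12, -0.23 and -0.04, and with relative log expression factors 0.14, 0.04 and 0.33. Cdkn1a, the p53 target that encodes the cell cycle inhibitor p21, averaged 3.93 ± 1.56 CPM in ROS+, 9.90 ± 5.78 in ROS++ and 21.3 ± 4.87 in ROS+++. It rose in ROS+++ against ROS+ (2.20 ± 0.44, limma adjusted p = 0.00039), while ROS++ against ROS+ gave 0.96 ± 0.42 (adjusted p = 0.0953), which passed without ROS++ replicate 5 (1.36, adjusted p = 0.00571). Btg2, an antiproliferative gene that is also an immediate early gene, averaged 249 ± 58.8, 599.9 ± 159 and 2610.0 ± 288 CPM in ROS+, ROS++ and ROS+++ and rose by 1.25 ± 0.18 (limma adjusted p = 4.53e-05) in ROS++ and by 3.41 ± 0.19 (adjusted p = 1.43e-10) in ROS+++ against ROS+. Fas, a death receptor gene, averaged 2.04 ± 1.19, 12.5 ± 7.64 and 13 ± 3.63 CPM and rose by 2.05 ± 0.39 (limma adjusted p = 0.000552) in ROS++ against ROS+. Rprm, a p53-induced inhibitor of cell division, averaged 37.8 ± 10.9, 28.1 ± 25 and 0.135 ± 0.0821 CPM and fell by 5.04 ± 0.43 in ROS+++ against ROS+ (limma adjusted p = 1.86e-08). Among p53 targets Perp and Btg2 were therefore higher, and Rprm lower, in the same ROS+++ libraries, and Mdm2 passed in no direction.

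**Figure D5:**
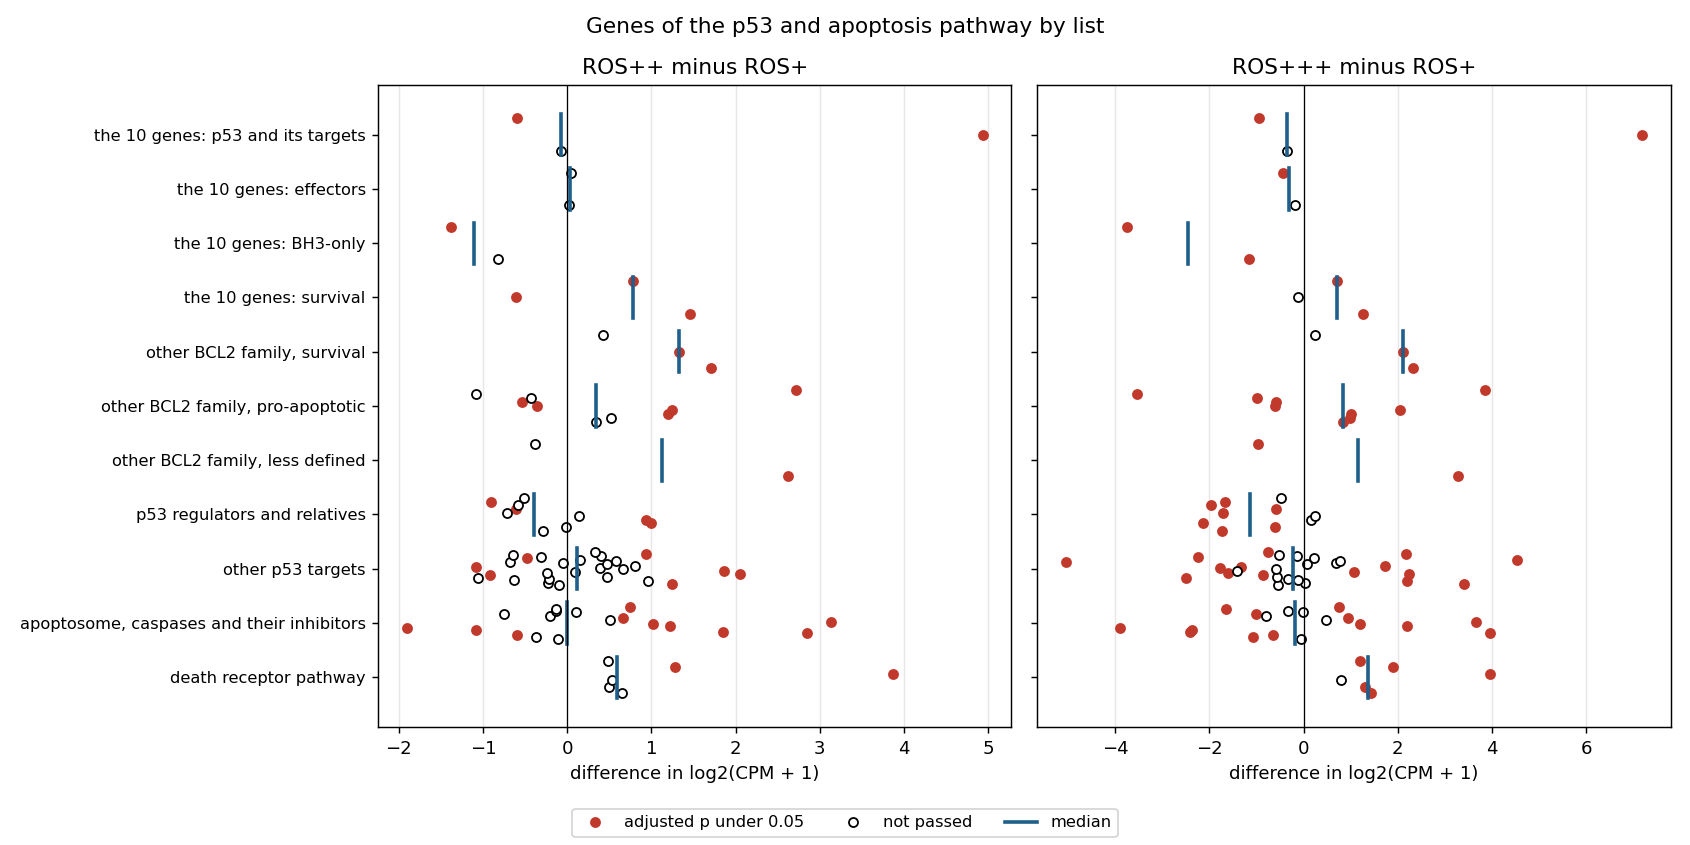
Log2(CPM + 1) difference of each tested gene of the pathway lists (horizontal axis) in ROS++ minus ROS+ (left) and ROS+++ minus ROS+ (right), with 1 point per gene, filled at an adjusted p under 0.05, and a blue line at the median of each list. The lists of p53 targets and of caspases spread to both sides of 0, and the 2 BH3-only genes among the 10 both lie to the left.

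The genes most like each of the 10 were found by the root mean square difference of centred log2(CPM + 1) values over the 14 libraries, without a test. For Bid these were Satb1 (0.37), Rab6b (0.39) and Hdac9 (0.39), beside a root mean square of 1.53 for Bid itself. Satb1 averaged 61.4 CPM in ROS+, 23.6 in ROS++ and 5.09 in ROS+++. For Perp they were Gm36823 (0.28), 5033404E19Rik (0.32) and Sod3 (0.35), beside 3.00 for Perp itself. Sod3, which encodes extracellular superoxide dismutase, averaged 0.357 CPM in ROS+, 43.8 in ROS++ and 194 in ROS+++. Trp53 was nearest to Rnf114, Rnf2 and Wdr43 (0.15, 0.15 and 0.16, beside 0.44), Bax to Naa10 (0.12, beside 0.26), Bcl2 to Rnf213 (0.31, beside 0.81), Mcl1 to Rap1b (0.27, beside 0.52) and Bcl2l1 to Mkrn2 (0.24, beside 0.38). For Mdm2 the nearest was Cdk7 (0.20, beside 0.37), for Bak1 Gm21811 (0.25, beside 0.37) and for Bbc3 Lpgat1 was the nearest gene with a symbol (0.38, beside 0.70).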

How the data were processed

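The deposited table holds log2 values of 14 libraries for 15119 genes under Ensembl identifiers. Per the submitters' processing notes STAR, edgeR and mm10 were used; for their roles and versions, the counting and the annotation, nothing is given in the sources used here. Per the labels' protocols, RNA was reverse transcribed from a poly-dT primer with template switching and amplified, with no strand kept and no molecular identifiers. All libraries share a lowest deposited log2 value of -4.36, and after its removal every value was a whole multiple of 1 read within 0.001 reads. These reads, divided by their library totals, gave CPM. Symbols and exon lengths came from GENCODE M21, and 15065 genes had a symbol. Chi-square divided by its degrees of freedom was 33.7 to 161 for the 26 pairs of libraries of 1 class, so none was a repeated library.

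Since the deposited unit is log2, log2(CPM + 1) was fitted in R 4.3.3 by limma 3.58.1 (trend and robust moderation, statmod 1.5.0) for genes with at least 1 CPM in at least 4 libraries, with all 14 libraries in 1 model. The threshold was an adjusted p (Benjamini-Hochberg) of 0.05. On simulated data for ROS++ against ROS+ with 15102 genes, 18% of 2-fold and 96% of 4-fold changes were recovered. The simulation changed far fewer genes than were called in the data and gave all genes the same spread. Its shares are therefore no measure of what was missed here. Ratios and sums used Python 3.11.15 with pandas 2.3.3, and have no test. Alternatives were relative log expression and upper-quartile factors, a pseudocount of 0.25 CPM, the log2 values as deposited, no filter, a filter at 5 CPM, limma-voom, sets of consecutive library numbers as a block, only the 2 classes compared, and each library left out.

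The 10 genes and all lists were chosen with earlier results of these data known. Named were the 10 genes, from each other list up to 4 genes past the threshold with the largest change in a comparison, of which examples are given, 8 genes whatever their values, and for each of the 10 the 3 genes most like it, of which the nearest are given. Replicates are numbered in sample order. A gene that the rule names is not reported here.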

Additional observations from a re-analysis of the deposited data

How the results depend on the processing

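Of 684 recomputed values of the 10 genes over the 3 comparisons, 635 kept their direction and their side of the threshold, 13 lost a call, 8 gained one and 28 changed sign. The 3 calls of Perp, the 3 of Bid, the 2 of Trp53 against ROS+ and the 2 of Bcl2 against ROS+ held throughout. Leaving out 1 library gave 3663 to 4627 called genes in ROS++ against ROS+, 8325 to 9206 in ROS+++ against ROS+, 5073 to 6155 in ROS+++ against ROS++ and 8617 to 9467 by the F-test, with 5 to 6, 5 to 7 and 3 to 4 of the 10 genes. The summed ratio of pro-apoptotic to survival genes, left out in the same way after the data were seen, kept a difference of -0.61 to -0.38, -1.37 to -1.12 and -0.90 to -0.61. Over the 13 pro-apoptotic and 6 survival genes of the family that were measured, also added after the data were seen, it was -0.62, -0.95 and -0.33. No paired analysis was possible because the labels give no replicate numbers shared between the classes. Sets of consecutive library numbers, to which the labels give no meaning, taken as a block called 4699, 9065 and 6134 genes in the 3 comparisons, and 6, 7 and 4 of the 10.

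Signs changed with relative log expression factors for Bax (0.0041), Mdm2 (0.080), Bak1 (0.042) and Bcl2l1 (0.32) in ROS+++ against ROS+, where Bcl2l1 gave 0.17 with upper-quartile factors. In ROS+++ against ROS++ they changed with relative log expression factors for Trp53 (0.053), Mdm2 (0.13), Bak1 (0.014), Bcl2 (0.21), Mcl1 (0.34), Bcl2l2 (0.20) and Casp9 (0.37). There upper-quartile factors gave 0.078 for Bcl2, 0.21 for Mcl1, 0.072 for Bcl2l2 and 0.24 for Casp9, and limma-voom 0.027 for Casp9. For ROS++ against ROS+ Bak1 gave -0.048 with a pseudocount of 0.25 CPM, -0.10 as deposited and -0.094 in limma-voom. With 1 library left out, the ranges that cross 0 were -0.20 to 0.19 for Bak1, -0.028 to 0.13 for Bax and -0.14 to 0.010 for Mdm2 in ROS++ against ROS+, -0.28 to 0.013 for Bcl2l1 in ROS+++ against ROS+, and -0.38 to 0.016 for Bak1, -0.22 to 0.12 for Casp9, -0.26 to 0.20 for Mcl1 and -0.058 to 0.097 for Mdm4 in ROS+++ against ROS++. Of these values only that of Bax in ROS+++ against ROS+ was called as reported; the scaling factors shift all genes of a library together, and any other cause was not tested. Depth limits Bak1, Bbc3 and, in ROS+, Perp.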

Other observations

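Initiator caspases were measured in the same libraries and did not all move alike. Casp8, the initiator caspase of death receptors that cleaves BID, averaged 1.64 ± 1.55 CPM in ROS+, 19.6 ± 5.66 in ROS++ and 28.6 ± 7.04 in ROS+++ (SD, n = 5, 5 and 4) and rose by 3.13 ± 0.38 (limma adjusted p = 6.37e-06) in ROS++ and by 3.67 ± 0.41 (adjusted p = 5.54e-07) in ROS+++ against ROS+. Casp8 was thus higher and its substrate gene Bid lower in both higher ROS classes than in ROS+. In ROS+++ against ROS++, Bid fell while Casp8 did not pass (0.54 ± 0.41, limma adjusted p = 0.312). Casp2, a further initiator caspase, ran against Casp8, with means of 129, 61.0 and 24.6 CPM in ROS+, ROS++ and ROS+++. It gave -1.08 ± 0.19 (limma adjusted p = 0.000369) in ROS++ and -2.37 ± 0.21 (adjusted p = 2.7e-08) in ROS+++ against ROS+. ROS+++ against ROS++ gave -1.29 ± 0.21 for Casp2 (limma adjusted p = 9.46e-05), a call that held in all 23 alternatives. The neuroblast marker sum was lower, and the mural and macrophage sums higher, in both higher ROS classes than in ROS+. Their part in these values was not tested. Casp9, the initiator caspase of the apoptosome, averaged 17.6 ± 4.04, 25.4 ± 5.04 and 25.3 ± 7.90 CPM and passed in no comparison; it passed in ROS+++ against ROS+ with relative log expression factors (0.90, limma adjusted p = 0.00826) and upper-quartile factors (0.76, adjusted p = 0.0222). Apaf1, the apoptosome scaffold, gave -1.07 ± 0.43 in ROS+++ against ROS+ (limma adjusted p = 0.0428), a call lost in 11 of 23 alternatives, with an adjusted p of 0.00784 to 0.227 over all of them. Without ROS+++ replicate 4 the value was -0.50 (limma adjusted p = 0.204). Of the 18 apoptosome, caspase and inhibitor genes tested, 7 were higher and 3 lower in ROS++ against ROS+, and 6 were higher and 7 lower in ROS+++ against ROS+. Of all genes 16.4% were higher and 13.2% lower in ROS++, and 19.2% higher and 40.0% lower in ROS+++. The ROS+++ counts turned to 8 higher and 4 lower with relative log expression factors and to 7 and 4 with upper-quartile factors.

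The genes of the death receptor pathway that passed were higher in the higher ROS classes. Those called in ROS+++ against ROS+ were Fadd, Tradd, Cflar, Tnfrsf1a and Tnf, so the list holds more than receptors. Of 6 tested in a list of 8, 2 were higher in ROS++ against ROS+ and 5 in ROS+++ against ROS+, and the others did not pass, while 16.4% and 19.2% of all genes were higher in these comparisons. Tnfrsf1a, the main receptor of tumour necrosis factor, averaged 39.1 ± 4.63 CPM in ROS+, 97.6 ± 20.7 in ROS++ and 157 ± 51.8 in ROS+++. It rose by 1.28 ± 0.22 (limma adjusted p = 0.00024) in ROS++ and by 1.91 ± 0.23 (adjusted p = 1.72e-06) in ROS+++ against ROS+. Tnf itself ranged from 0 to 0.0469 CPM in ROS+, from 4.69 to 32.0 in ROS++ and from 2.53 to 119.7 in ROS+++. The macrophage and microglia marker sum was higher in the same 2 classes, and its part in these values was not tested.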
